A study of Homo sapiens with 12 samples.

Results

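Chemokines are small secreted proteins that draw leukocytes along a gradient by engaging G-protein-coupled receptors, and 10 of their genes, CXCL1, CXCL2, CXCL3, CXCL5, CXCL8, CXCL10, CXCL11, CXCL16, CCL2 and CCL20, were followed in MDA-MB-231, an established human breast cancer line of mesenchymal character. The genes were taken by name. Each was read by 1 feature of the array that names it alone, so 10 features stood for 10 of the 18417 genes measured in the series. Transcripts were measured in 12 samples in 4 groups of 3 arrays: parental MDA-MB-231 cells without treatment, parental cells given TRAIL at 100 ng per ml for 2 hours, cells of the same line treated to resistance (TTR) without treatment, and TTR cells given the same dose for the same time. The labels do not say whether the TTR cells are a clone or a pool. The sample descriptions carry an unexplained tag that differs between the lines, and what it stands for cannot be told apart from them. The labels do not state that the replicates were separate cultures, and p-values then reflect no more than the spread from array to array, which may be technical.

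TRAIL is a death ligand that binds the receptors TNFRSF10A and TNFRSF10B. Besides starting apoptosis, these receptors can switch on NF-kB and MAP kinase signalling, and chemokine genes are well-known targets of both. CXCL1, CXCL2, CXCL3, CXCL5 and CXCL8 belong to the ELR class, which attracts neutrophils through CXCR2 (CXCL8 also through CXCR1). CXCL10 and CXCL11 are interferon-inducible ligands of CXCR3 and attract activated T cells. CXCL16 is made as a membrane-bound ligand of CXCR6 and is shed by ADAM10 and ADAM17. CCL2 attracts monocytes through CCR2, and CCL20 attracts CCR6-bearing dendritic cells and lymphocytes.

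A stretch of sequence before the start of each gene shows what several of them share. Windows reaching from 250 bases before to 50 bases after the start, from RefSeq in build GRCh38.p14, were used for 8 of the 10 genes (all but CXCL16 and CCL2). The last 100 bases before the start are printed for 6 of them, 5′ to 3′ on the gene's own strand, with capitals for a match to an NF-kB type motif on either strand: GGAATTTCC, GG followed by any 3 bases and TTTCC, or GG followed by any 4 bases and TTCC, which overlap one another. They lie at chr4:73869293-73869392 (plus strand), chr4:74099196-74099295 (minus), chr4:74038690-74038789 (minus), chr4:73998678-73998777 (minus), chr4:76036071-76036170 (minus) and chr2:227813742-227813841 (plus).
CXCL1: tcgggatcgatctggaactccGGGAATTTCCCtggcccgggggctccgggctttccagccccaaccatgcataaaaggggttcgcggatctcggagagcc
CXCL2: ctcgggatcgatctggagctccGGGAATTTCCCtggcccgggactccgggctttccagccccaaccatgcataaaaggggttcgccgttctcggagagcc
CXCL3: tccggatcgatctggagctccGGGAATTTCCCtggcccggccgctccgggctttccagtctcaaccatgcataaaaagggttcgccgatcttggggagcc
CXCL5: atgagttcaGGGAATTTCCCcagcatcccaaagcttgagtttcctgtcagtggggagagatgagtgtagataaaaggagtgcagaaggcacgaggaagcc
CXCL11: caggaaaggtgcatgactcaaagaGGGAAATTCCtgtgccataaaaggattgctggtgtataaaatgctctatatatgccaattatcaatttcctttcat
CCL20: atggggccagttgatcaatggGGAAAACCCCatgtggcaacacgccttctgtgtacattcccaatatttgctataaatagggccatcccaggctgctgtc

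In CXCL8 and CXCL10 other matches lay farther up, so all 250 bases before the start are printed, from chr4:73740319-73740568 (plus strand) and chr4:76023498-76023747 (minus strand), with capitals for the same NF-kB type motifs.
CXCL8: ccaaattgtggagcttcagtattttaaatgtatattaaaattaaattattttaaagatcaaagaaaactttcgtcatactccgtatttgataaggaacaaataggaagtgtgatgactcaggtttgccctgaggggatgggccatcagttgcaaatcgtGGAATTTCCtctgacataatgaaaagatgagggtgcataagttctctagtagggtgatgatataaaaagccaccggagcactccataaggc
CXCL10: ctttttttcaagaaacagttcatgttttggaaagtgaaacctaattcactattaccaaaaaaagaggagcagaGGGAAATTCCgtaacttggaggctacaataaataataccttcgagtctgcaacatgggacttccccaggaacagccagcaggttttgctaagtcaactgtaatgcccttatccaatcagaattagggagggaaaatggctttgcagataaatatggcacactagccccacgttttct

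The letters GGAATTTCC stood in 7 of the 8 windows, against 0.461% of the 35116 windows in the table. CCL20, the exception, held the form ending in TTTCC on the opposite strand, 79 bases before its start; that form stood in 5 of the 8 and in 6.15% of all windows. The form ending in TTCC stood in 7 of the 8 and in 20.7% of all windows. In CXCL1, CXCL2 and CXCL3 the letters GGAATTTCC began 78, 77 and 78 bases before the start, and the last 100 bases of CXCL1 were 94.1% identical to those of CXCL2 and 90% identical to those of CXCL3. An AP-1 type motif (TGANTCA, in 7.71% of windows) began 137 bases before the start of CXCL8 and 87 bases before that of CXCL11. A C/EBP type motif (TTGCNNAA, 10.5%) was found in CXCL2, and an interferon response type motif (GAAA, any 2 bases, GAAA; 3.57%) in CXCL10, from 221 bases before its start. TATAAA (11.5%) stood in CXCL8, CXCL11 and CCL20. A match is a description of letters and not a measured binding site. CXCL1, CXCL2 and CXCL3 have near-identical stretches, so their matches are not independent of one another. The genes were also chosen with results of these arrays known. The 7 of 8 against 0.461% therefore describes these windows and is no test. CXCL5 and CXCL11, which hold GGAATTTCC as CXCL1 and CXCL8 do, are set beside these by level in what follows.

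**Figure D1:**
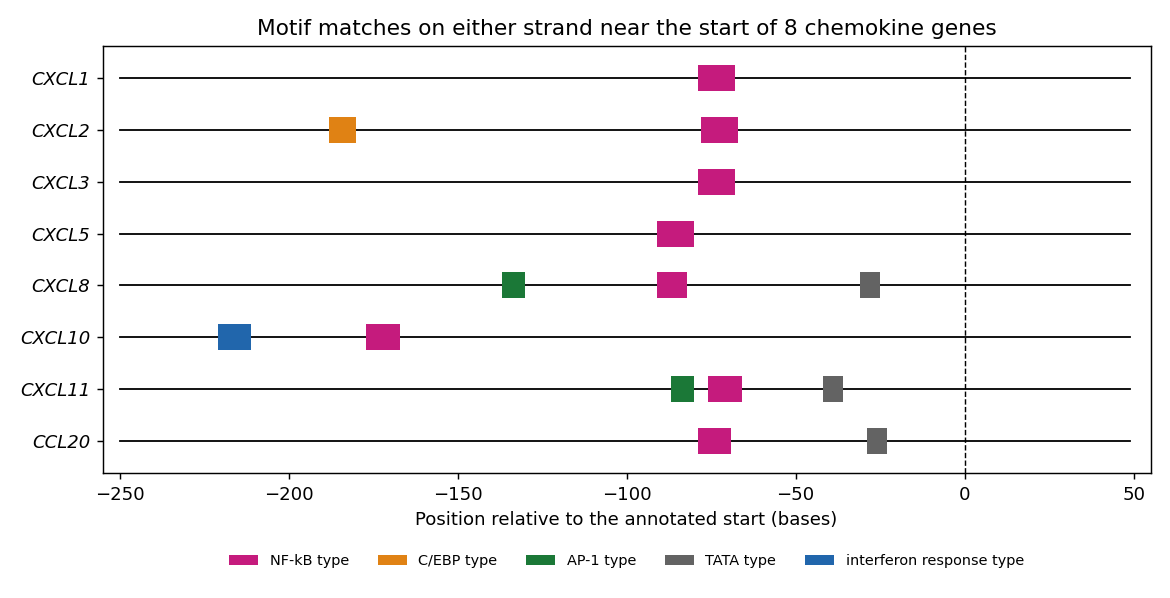
Motif matches on either strand in the windows of 8 chemokine genes. The horizontal axis gives bases relative to the annotated start (dashed line), each black line is the window searched, and each coloured bar spans the bases covered by the matches of one motif class. All 8 windows hold a match to any of the NF-kB type motifs, as do 20.9% of all 35116 windows. The match of CXCL10 lies farthest from its start.

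Values are on the log2 scale of the deposited table, so that a step of 1 is a 2-fold step, and they are not comparable between genes as amounts. The arrays of TRAIL-treated parental cells had medians over all features of 4.58 to 4.61, above the 4.24 to 4.40 of the other 9 arrays, so the median rose by 0.29 with TRAIL in parental cells and by 0.11 in TTR cells. The median change of the 18417 genes was 0.05 and -0.01. In untreated parental cells the 9 mesenchymal markers read 11.51 (CAV1), 11.38 (VIM), 11.05 (CD44), 10.93 (AXL), 8.34 (SNAI2), 8.17 (FN1), 7.57 (ZEB1), 5.20 (TWIST1) and 4.62 (SPARC). Of 11 luminal markers the keratins KRT18 (10.49), KRT8 (10.47) and KRT19 (8.03) were the highest, and the others, ESR1 (3.55), PGR (2.46) and CDH1 (3.12) among them, read 4.94 or less. Of 13 leukocyte markers CD68 (9.31), TYROBP (5.01) and NKG7 (4.67) were the highest and PTPRC (2.20) was the lowest. Since probes differ in brightness, these levels are a rough check of the label and give no order of amounts. No measure of signal above background was used, so low levels can be background: the lower quartile of all features was 2.83 to 3.05 on the 12 arrays. RNA came from whole cultures, in which fewer cells making a transcript and less transcript per cell cannot be told apart.

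The first comparison asked what TRAIL did to these genes in parental cells. Of the 10, 7 rose and 0 fell by limma (adjusted p under 0.05, the same counts at an unadjusted p under 0.05), while 28.9% of all genes were called higher and 29.9% lower. At least 2-fold rises were seen in 6, against 4.21% of all genes. The 3 against 3 values did not overlap, and lay higher with TRAIL, in 8 of the 10, against 31.2% of all genes; CCL2 is among the 8, but its groups meet at 2.82. The median change of the 10 was 2.72. The genes were chosen with results of these arrays known, so the counts describe them and are not independent evidence. The name chemokines induced by TRAIL fitted 6 of the 10.

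The ELR chemokines CXCL8, CXCL1 and CXCL2, which recruit neutrophils, made the largest steps. CXCL8 stood at 6.49, 6.52 and 6.90 in untreated parental cells and at 12.13, 12.07 and 12.02 with TRAIL. Its treated arrays lay close together and far above every untreated array, a 43.4-fold rise (5.44 ± 0.17, SE, adjusted p = 6.01e-13 by limma). CXCL2 stood at 4.96, 5.05 and 4.84 without and at 11.02, 10.84 and 10.57 with TRAIL, a 58.1-fold rise (5.86 ± 0.15). By size of rise it was 6th of the 18417 genes, CXCL8 10th and CXCL1 12th. CXCL1 went from 5.40, 5.65 and 5.54 to 11.05, 10.58 and 10.55, which is 36.6-fold (5.20 ± 0.17).

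CXCL3 belongs to the same class and lies beside CXCL2 on chromosome 4. It began at 4.80, 4.26 and 4.65 and reached 7.94, 7.64 and 7.27, 8.28-fold (3.05 ± 0.18). The interval of its change, 2.67 to 3.43, lay below those of CXCL1 (4.83 to 5.56), CXCL2 (5.54 to 6.18) and CXCL8 (5.08 to 5.80). CXCL1, CXCL2 and CXCL3 are close paralogs, and probes of one may take signal from another, so that their separate levels are uncertain.

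CXCL5, the remaining ELR gene among the 10, hardly moved. It read 3.80, 3.79 and 3.87 without TRAIL and 4.24, 3.88 and 4.25 with it, a 1.24-fold rise (0.31 ± 0.11, adjusted p = 0.0203). Its groups nearly touched, at 3.87 and 3.88, and the rise was close to that of the array median (0.29). After median centring it stood at 0.02 (adjusted p = 0.910), after quantile normalization at 0.02 (adjusted p = 0.907). The call was also lost without parental untreated array 1 or 2, without parental TRAIL array 1 or 3, and with only the 2 parental groups in the fit, over a range of adjusted p from 0.00106 to 0.910.

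CCL20 rose 19.6-fold (4.29 ± 0.24, adjusted p = 4.75e-10), from 2.60, 3.10 and 3.15 to 7.92, 7.10 and 6.69. Its treated arrays spread more than those of the other genes (SD 0.63). Since its untreated values lay near the lower quartile of the arrays, where signal can be background, the fold rests on a level that may not have been measured above it. The other CC gene, CCL2, stayed low at 2.73 to 2.82 without and 2.82 to 3.00 with TRAIL (0.12, 95% interval -0.09 to 0.34, adjusted p = 0.313).

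The interferon-inducible pair parted. CXCL10 rose 5.26-fold (2.40 ± 0.17, adjusted p = 3.63e-09), from 3.49, 3.19 and 3.79 to 6.15, 5.79 and 5.72. CXCL11, its neighbour on chromosome 4, read 2.95, 2.64 and 3.20 without and 3.04, 2.76 and 3.27 with TRAIL, groups that overlap (0.09, 95% interval -0.25 to 0.43, adjusted p = 0.655). CXCL16, at 2.33 to 2.60 without and 2.50 to 2.54 with TRAIL, lay under the lower quartile of all 12 arrays (0.03, 95% interval -0.18 to 0.24, adjusted p = 0.840). With median centring CXCL11 and CCL2 stood at -0.20 and -0.17, uncalled, and CXCL16 at -0.26 (adjusted p = 0.0362), so the direction of these small values depends on the scaling.

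**Figure D2:**
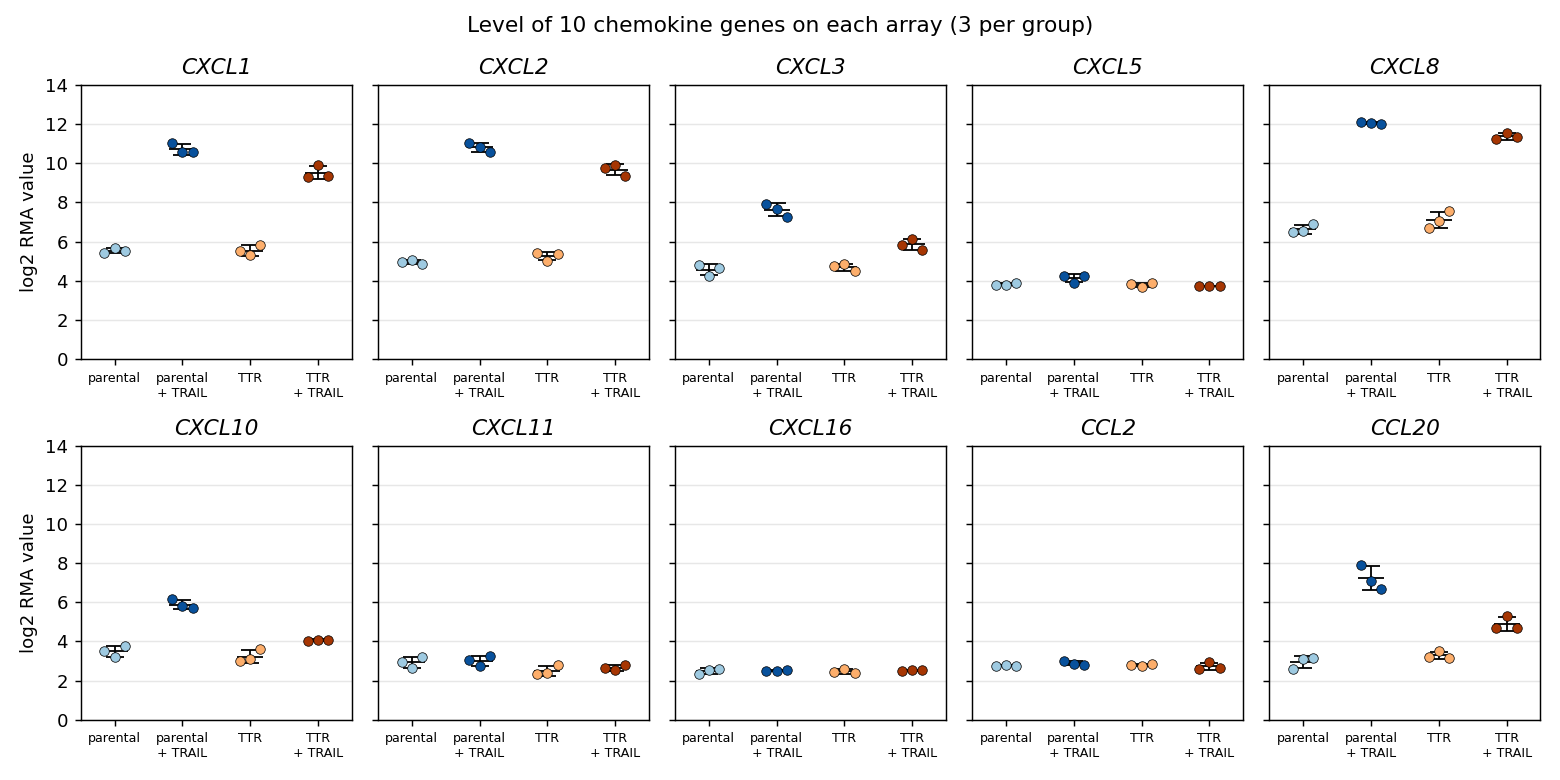
Level of each chemokine gene on every array. The vertical axis is the deposited log2 RMA value, each dot is 1 array (replicates 1 to 3 from left to right within a group), the long dash is the group mean and the bars its SD (n = 3). CXCL1, CXCL2, CXCL3, CXCL8, CXCL10 and CCL20 stand higher with TRAIL in both lines, by less in TTR cells, while CXCL11, CXCL16 and CCL2 stay between 2.33 and 3.27.

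The same dose was then followed in TTR cells. Here 6 of the 10 rose and 0 fell by limma, the same counts at an unadjusted p under 0.05, against 3.27% of all genes called higher and 2.55% lower. Of the 10, 5 rose by at least 2-fold, as did 0.673% of all genes, and the median change was 1.00. The 6 were CXCL1, CXCL2, CXCL3, CXCL8, CXCL10 and CCL20, which also rose in parental cells. In these 6, and in no other of the 10, the treated and untreated values did not overlap, as held for 11.2% of all genes in this direction.

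CXCL2 went from 5.42, 5.03 and 5.36 to 9.77, 9.93 and 9.34 in TTR cells, 21.3-fold (4.41 ± 0.15, adjusted p = 2.32e-11). CXCL8 went from 6.69, 7.06 and 7.55 to 11.22, 11.57 and 11.35, 19.5-fold (4.28 ± 0.17). CXCL1 went from 5.50, 5.29 and 5.83 to 9.30, 9.90 and 9.33, 15.7-fold (3.97 ± 0.17). These were the 3rd, 5th and 6th largest rises of all genes in TTR cells.

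CXCL3, CCL20 and CXCL10 took smaller steps. CXCL3 rose 2.24-fold (1.16 ± 0.18, adjusted p = 8.53e-04), from 4.75, 4.83 and 4.48 to 5.81, 6.15 and 5.59. CCL20 rose 3.05-fold (1.61 ± 0.24, adjusted p = 7.83e-04), from 3.22, 3.50 and 3.17 to 4.71, 5.30 and 4.70. CXCL10 rose 1.79-fold (0.84 ± 0.17, adjusted p = 0.00727), from 3.00, 3.08 and 3.60 to 4.0, 4.10 and 4.09, with all treated arrays above all untreated ones. Its adjusted p reached 0.0482 without TTR untreated array 2, and every call among these 6 held in all alternatives run.

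The other 4 did not pass in TTR cells. CXCL5 read 3.69 to 3.86 without and 3.72 to 3.75 with TRAIL (-0.05, 95% interval -0.28 to 0.17). CXCL11 read 2.35 to 2.81 and 2.52 to 2.79 (0.14, -0.20 to 0.48), CXCL16 2.37 to 2.61 and 2.48 to 2.53 (0.04, -0.17 to 0.25), and CCL2 2.75 to 2.86 and 2.61 to 2.93 (-0.08, -0.29 to 0.14).

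**Figure D3:**
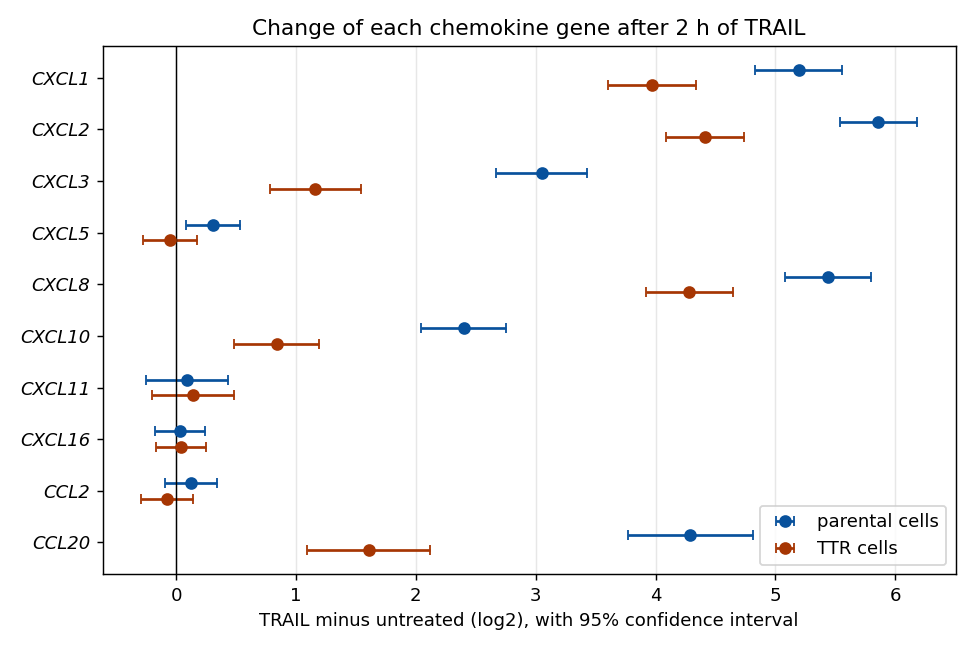
Change of each chemokine gene with TRAIL in parental (blue) and TTR (brown) cells. The horizontal axis is the TRAIL group minus the untreated group on the log2 scale, with the limma estimate as a dot and its 95% confidence interval as a bar. In 6 genes both intervals lie above 0 and the TTR interval lies below the parental one.

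The lines were also compared without treatment. Of the 10 genes 0 were called between untreated TTR and parental cells by limma, against 7.11% of all genes called in either direction. With so few genes a count of 0 is near that share and says nothing particular to them. At an unadjusted p under 0.05 there were 2: CXCL8, 0.47 higher in TTR cells (95% interval 0.10 to 0.83, adjusted p = 0.127), and CXCL11, 0.42 lower on the log2 scale (-0.42, -0.76 to -0.08, adjusted p = 0.149). Both passed with array weights, CXCL8 also without TTR untreated array 1 and CXCL11 with the replicate number as a block, over ranges of adjusted p from 0.0166 to 0.461 and from 0.0138 to 0.449. In CCL20 the TTR arrays began at 3.17, just above the highest parental array at 3.15, with an interval of the difference from -0.17 to 0.87.

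With TRAIL, TTR cells held less of 7 of the 10 transcripts than parental cells and more of 0 (8 and 0 at an unadjusted p under 0.05). Of all 18417 genes 4853 were called lower (26.4%) and 5164 higher. After median centring 2391 were called lower and 6839 higher. The comparison shares its arrays with those above. CCL20 was 5.05-fold lower (-2.34 ± 0.24, adjusted p = 5.56e-07), CXCL10 3.53-fold (-1.82 ± 0.17), CXCL3 3.40-fold (-1.77 ± 0.18), CXCL1 2.32-fold (-1.22 ± 0.17), CXCL2 2.19-fold (-1.13 ± 0.15) and CXCL8 1.61-fold (-0.69 ± 0.17, adjusted p = 0.00268). CXCL5 was 1.31-fold lower (-0.39 ± 0.11, adjusted p = 0.00506), a call lost after median centring (-0.19, adjusted p = 0.163) and quantile normalization (-0.17, adjusted p = 0.231). In these 7 genes the TTR arrays all lay below the parental ones, as in 30.5% of all genes. CXCL11 (-0.37, adjusted p = 0.0606), CCL2 (-0.17, adjusted p = 0.180) and CXCL16 (-0.01, adjusted p = 0.948) did not pass. CXCL11 crossed the threshold in 8 of 20 alternatives, over a range of adjusted p from 0.00447 to 0.402. CCL2 crossed it without TTR TRAIL array 2 (adjusted p = 0.0427, over a range from 0.0427 to 0.828).

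Whether TRAIL acted less on TTR cells was tested by subtracting the parental change from that of TTR cells. The result was below 0 for 6 of the 10 genes and above 0 for 0 by limma (7 and 0 at an unadjusted p under 0.05), against 14.3% of all genes below 0 and 22.9% above (2628 and 4224 genes). After median centring, which moves all differences up, it was 1275 and 5410 of all genes, and the same count of 6 members below 0. CCL20 stood at -2.68 ± 0.35 (adjusted p = 1.60e-05), CXCL3 at -1.89 ± 0.25 (adjusted p = 2.36e-05), CXCL10 at -1.56 ± 0.24, CXCL2 at -1.45 ± 0.22, CXCL1 at -1.23 ± 0.25 and CXCL8 at -1.16 ± 0.24 (adjusted p = 0.00123). Neighbours in this order have overlapping 95% intervals. The outermost do not: CCL20 spans -3.42 to -1.95 and CXCL8 -1.67 to -0.64. On the log2 scale TTR cells kept 78.7% of the parental step of CXCL8, 76.4% for CXCL1 and 75.3% for CXCL2, but 38.2% for CXCL3, 37.4% for CCL20 and 35% for CXCL10. The latter 3 are also the genes with the smaller rise in parental cells. In both lines all untreated arrays of CCL20 and CXCL10 lay below the array median, and low signal can be background, which limits these shares. Whether the shares differ between genes was not tested. CXCL5 (-0.36 ± 0.15, adjusted p = 0.0733; 0.0071 without parental TRAIL array 2, over a range from 0.0071 to 0.521), CCL2 (-0.20, adjusted p = 0.295), CXCL11 (0.05, adjusted p = 0.899) and CXCL16 (0.01, adjusted p = 0.951) did not pass. The 6 calls held in all alternatives run.

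**Figure D4:**
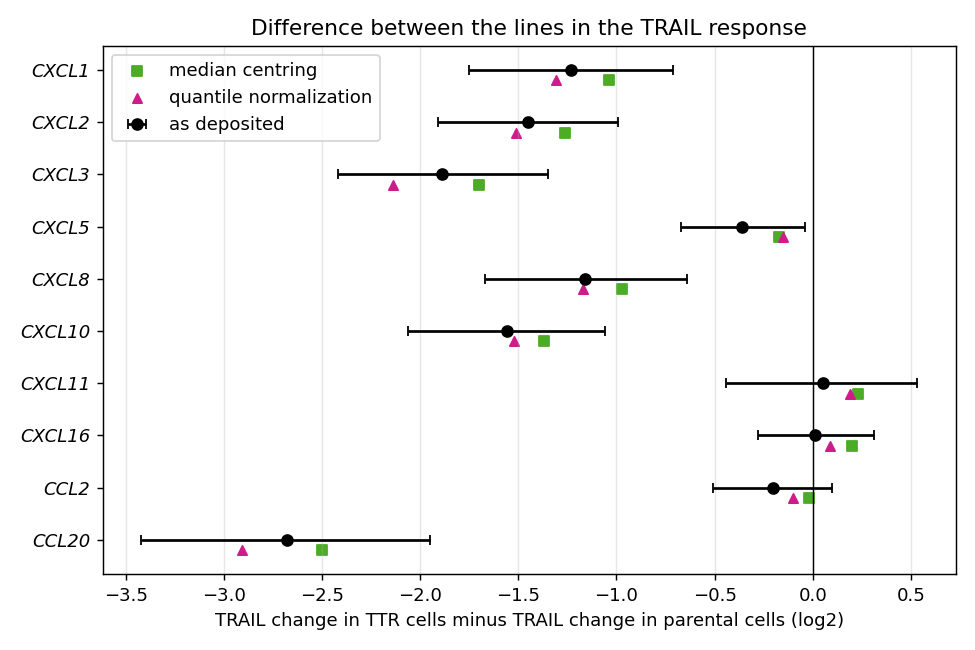
Difference between the lines in the TRAIL response of each chemokine gene. The horizontal axis is the TRAIL change in TTR cells minus that in parental cells on the log2 scale, with the value from the deposited table and its 95% interval in black and the values after median centring (squares) and quantile normalization (triangles). CXCL1, CXCL2, CXCL3, CXCL8, CXCL10 and CCL20 stay below 0 on each of the 3 scales.

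The other chemokine ligands give the setting. Of 38 on the list 30 were measured, and with TRAIL in parental cells 9 rose and 2 fell, by at most 0.64, with a median change of 0.16. The share of rises is close to the 28.9% of all genes called higher. The share of falls is below the 29.9% of all genes called lower. Whether the list differs from all genes was not tested. CXCL14 (0.64 ± 0.13, adjusted p = 3.82e-04), CX3CL1 (0.53 ± 0.12), a membrane-bound ligand of CX3CR1, and CCL11 (0.54 ± 0.12), an attractant of eosinophils, had the smallest p. After median centring 1 rose and 10 fell, so that the direction of this list turned with the scaling. CXCL14 still passed (0.35, adjusted p = 0.0238), but CX3CL1 (0.24, adjusted p = 0.0991) and CCL11 (0.25, adjusted p = 0.0896) did not. In TTR cells 0 of the 30 passed by limma, and 0 at an unadjusted p under 0.05, with changes from -0.15 to 0.25. Of all genes 3.27% were called higher and 2.55% lower there, and with so few genes 0 calls are near these shares. From CXCL8 to CXCL2 the RefSeq annotation of chromosome 4 holds 9 coding genes in a row, each a chemokine: CXCL8, CXCL6, PF4V1, CXCL1, PF4, PPBP, CXCL5, CXCL3 and CXCL2. In parental cells the genes that lie among the strong responders moved little: CXCL6 by 0.21 (adjusted p = 0.0729), the platelet chemokines PF4V1, PF4 and PPBP by 0.37, 0.34 and 0.27 (adjusted p = 0.00814, 0.0325 and 0.0405). After median centring those 3 stood at 0.08, 0.05 and -0.02, uncalled, and CXCL6 at -0.08. In TTR cells they stood at 0.01, 0.03, 0.19 and 0.19, uncalled. CXCL9, the third interferon-inducible ligand of CXCR3, lies near CXCL10 and stood at -0.04 and -0.08, uncalled. Of the 14 measured coding genes between CXCL2 and CXCL10 that are no chemokine, 0 rose and 6 fell in parental cells. Of all genes 28.9% were called higher and 29.9% lower there, and whether this stretch differs from them was not tested.

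Of 23 chemokine receptors 21 were measured. In parental cells 7 rose and 0 fell, by at most 0.69 (median 0.16), where 28.9% of all genes were called higher and 29.9% lower. The share of rises is near that of all genes and the share of falls is below it, a difference that was not tested. After median centring 2 rose and 5 fell. CCR10 (0.69 ± 0.15, from 4.50 to 5.18), CCR4 (0.52 ± 0.10, from 2.36 to 2.88) and CCR9 (0.38 ± 0.11, from 2.38 to 2.76) had the smallest p. CCR9 did not pass after median centring (0.09, adjusted p = 0.518). In TTR cells 0 receptors passed, and 0 at an unadjusted p under 0.05. That count is near the shares of all genes called there, 3.27% higher and 2.55% lower. Both sheddases of CXCL16 were called lower in parental cells, as were 29.9% of all genes. ADAM10 fell by 1.48 on the log2 scale (-1.48 ± 0.14) and ADAM17 likewise (-1.36 ± 0.11). In TTR cells they stood at -0.14 and -0.08, uncalled. CXCL16 itself lay under the lower quartile of every array, and its shedding was not measured.

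Genes of the NF-kB pathway were measured beside the chemokines. Of 15 subunits, kinases, inhibitors and related genes 9 rose and 3 fell in parental cells (median 0.75). In TTR cells 10 rose and 0 fell (median 0.56). All genes had 28.9% higher and 29.9% lower in parental cells, and 3.27% and 2.55% in TTR cells. After median centring the counts were 8 and 3, and 8 and 0. The inhibitor NFKBIA (3.11 ± 0.11 in parental, 2.62 ± 0.11 in TTR cells) and the related NFKBIZ (2.92 ± 0.10 and 2.43 ± 0.10) rose in both lines. Their rises differed between the lines by limma in the deposited values (-0.49, adjusted p = 0.0208, and -0.50, adjusted p = 0.0131). After median centring the difference did not pass for either (-0.31, adjusted p = 0.133, and -0.31, adjusted p = 0.113). For the whole list the difference was above 0 in 3 genes and below 0 in 5, and after median centring above 0 in 6 and below 0 in 2. TNFAIP3, which ends NF-kB signalling, rose by 3.00 ± 0.20 and 3.73 ± 0.20, a difference of 0.73 (adjusted p = 0.0488), which was 0.92 after median centring (adjusted p = 0.0157) and 0.49 after quantile normalization (adjusted p = 0.186). Of 28 measured interferon-stimulated genes 8 rose and 10 fell in parental cells (median -0.15), shares not far from those of all genes, and 2 rose and 2 fell in TTR cells. The balance depended on the scaling: in parental cells 5 rose and 17 fell after median centring (median -0.44) and 7 rose and 14 fell after quantile normalization. IRF7 (2.40 ± 0.11 and 0.60 ± 0.11) and IRF1 (2.22 ± 0.10 and 1.43 ± 0.10), transcription factors of the interferon system, rose in both lines. OAS2, an antiviral enzyme, fell in both (-1.36 ± 0.10 and -0.44 ± 0.10), as did IFIT5 (-0.96 ± 0.09 and -0.57 ± 0.09), while CXCL10 rose.

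Leukocytes make many chemokines, so their markers were read beside these results. Of 13 measured markers 5 rose and 1 fell with TRAIL in parental cells, where 28.9% of all genes were called higher and 29.9% lower. The share of rises is not far from that of all genes, so it says little particular to these markers. The changes were at most 0.52 (CD68, 9.31 to 9.83, a lysosomal protein not limited to leukocytes). In TTR cells 0 passed (1 at an unadjusted p under 0.05), against 3.27% of all genes higher and 2.55% lower. After median centring 0 rose and 2 fell in parental cells, CD68 standing at 0.23 (adjusted p = 0.0639). Their summed level, as log2, was 9.60 to 9.71 in untreated and 10.05 to 10.16 in TRAIL-treated parental arrays, and 9.34 to 9.53 and 9.41 to 9.55 in TTR arrays. Without CD68 it was 7.31 to 7.47, 7.54 to 7.72, 7.25 to 7.39 and 7.22 to 7.33. The pan-leukocyte gene PTPRC stood at 2.20, 2.44, 2.14 and 2.29 in the 4 groups, under the lower quartile of the arrays.

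**Figure D5:**
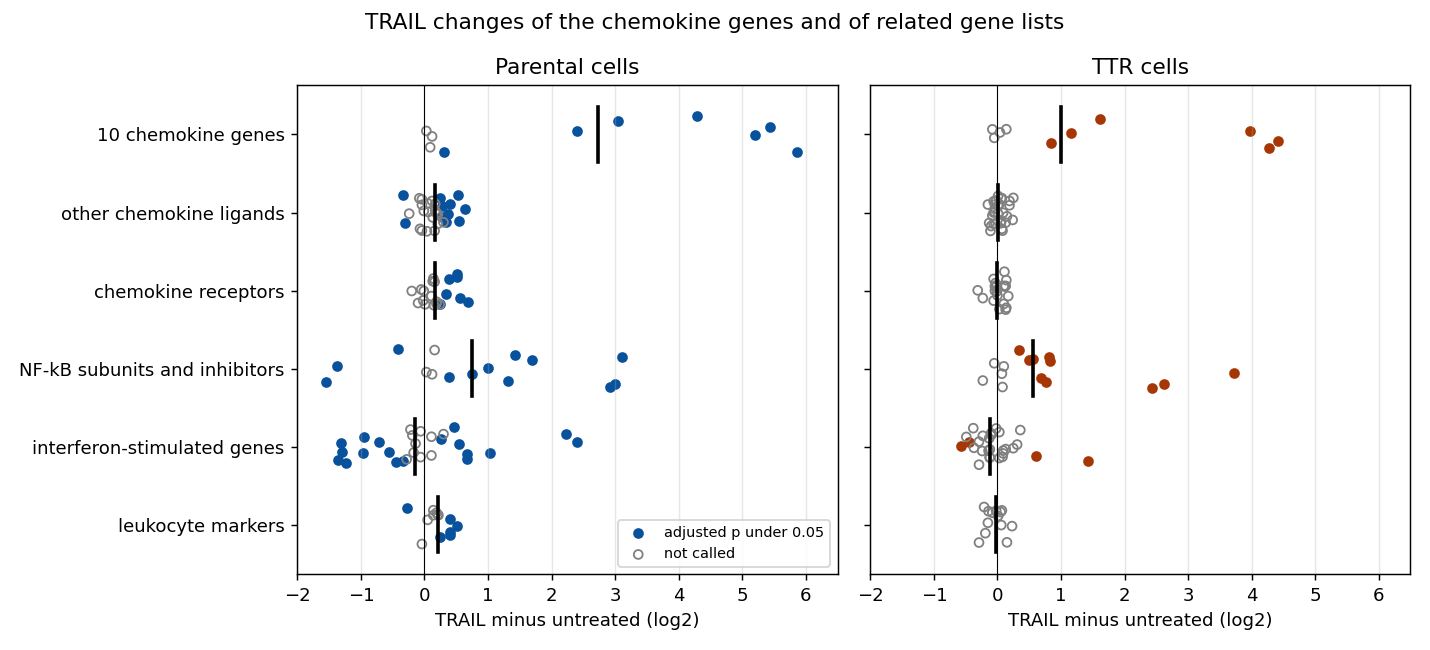
TRAIL changes of the 10 chemokine genes and of 5 related lists in parental (left) and TTR (right) cells. The horizontal axis is TRAIL minus untreated on the log2 scale, each dot is a gene (filled where called by limma, open where not; vertical scatter is only for display) and the black bar is the list's median. The other chemokine ligands and the receptors stay within 0.69 of 0 in both lines.

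The genes whose pattern was most like that of the 5 ELR genes among the 10 were NFKBIZ, PTX3, FOS, SOD2 and JUN. Their Pearson's r over the 12 arrays with the mean centred profile was 0.994, 0.994, 0.994, 0.993 and 0.993. The arrays share 4 groups, so this is a description. By the same measure CCL20 (0.946) came 102nd of all genes and CXCL10 (0.880) 490th. Of the genes that make up the profile, CXCL3 had 0.939 and CXCL5 0.518, and outside it CXCL11 had 0.279, CCL2 0.277 and CXCL16 0.191. PTX3, a secreted pattern-recognition molecule, went from 6.38 to 10.01 in parental and from 6.35 to 9.19 in TTR cells, and SOD2, a mitochondrial antioxidant enzyme, from 6.73 to 9.13 and from 6.63 to 8.54.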

How the data were processed

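Total RNA of 12 samples was measured on one-colour Affymetrix arrays. The deposited values are log2, made by the authors with RMA in Affymetrix Power Tools, per the submitters' processing notes; the sources used here do not give settings, versions or genome build. Of 33252 features 19460 named 1 gene, 1754 several and 12038 none; 19429 of the first had an identifier in RefSeq's gene table. The highest-mean feature was kept for the 769 genes with several, which gave 18417 genes. Groups followed the labels. All arrays were fitted with limma 3.58.1 in R 4.3.3 (lmFit, eBayes, one mean per group, no low-value filter; 8 residual and 7.87 prior degrees of freedom), with two-sided tests and Benjamini-Hochberg adjustment over all genes. Genes were called at an adjusted p under 0.05. The code was tested on simulated data. With 3 arrays a side an exact permutation p is at least 0.1, so none was used.

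The 10 genes and the lists were chosen with earlier results of these data known. All 10 were named in every comparison; from other lists, the 3 called genes with the smallest p for TRAIL in each line, plus markers by level, chemokine ligands between members on the chromosome, and the 5 genes of most similar pattern. The luminal and leukocyte genes named with their levels were picked after these were seen. Alternatives were another scaling (median centring, quantile normalization), the mean of features, every feature, a filter on low values, array weights, an intensity trend, fewer groups, a replicate block and each array left out. Arrays of one replicate number carry a like code in the descriptions, whose meaning the labels do not give. Deviations of same-numbered arrays correlated at 0.146 to 0.395 in TTR cells (TRAIL against untreated), which was taken as pairing. The values of 0.056 to 0.107 in parental cells, -0.033 to 0.373 between untreated lines and -0.007 to 0.142 between treated lines were not. Arrays of unlike number correlated at -0.344 to 0.055 in TTR cells and at -0.097 to 0.032 in parental cells. In parental cells these too lay below the same-numbered values, so pairing there may be weak rather than absent. The main fit held no block, which was run as an alternative. No 2 arrays were identical (0 pairs), and 0 columns lacked a sample. Motifs were searched in Python 3.11.15, identity was computed with Biopython 1.88 (global alignment), and figures used matplotlib 3.10.9.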

Additional observations from a re-analysis of the deposited data

Results flagged for a closer look

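In 6 genes the TRAIL effect differed between the lines by the limma test of that difference (TTR change minus parental change, log2, adjusted over all genes): CXCL1 at -1.23, CXCL2 at -1.45, CXCL3 at -1.89, CXCL8 at -1.16, CXCL10 at -1.56 and CCL20 at -2.68. The parental TRAIL arrays, whose median over all features was 0.29 above that of untreated parental arrays, enter each of these. Relative to the array medians the values were -1.04, -1.26, -1.70, -0.97, -1.37 and -2.50.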

How the results depend on the processing

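Of 50 member results (10 genes in 5 comparisons) 42 kept their side of the threshold in every alternative run, among them 24 of the 26 called, and 0 called values changed sign. The 2 called results that did not keep it were CXCL5 in parental cells and under TRAIL between the lines. Uncalled values near 0 changed sign as follows, not counting values of 0.00 (CXCL5 with TRAIL in TTR cells with array weights; CXCL16 between untreated lines after either scaling and without TTR untreated array 1, and in the difference without TTR TRAIL array 2). With TRAIL in parental cells CXCL11, CXCL16 and CCL2 stood at -0.20, -0.26 and -0.17 after median centring and at -0.07, -0.06 and -0.01 after quantile normalization. In TTR cells CXCL16 stood at -0.07 after median centring and -0.03 with array weights. Between untreated lines CXCL1 stood at -0.10 and CXCL16 at 0.07 with array weights. Between treated lines CXCL16 and CCL2 stood at 0.19 and 0.04 after median centring, and CXCL16 at 0.09 after quantile normalization. For the difference in effect CXCL16 stood at -0.08 with array weights. Leaving out 1 array, uncalled values that changed sign ranged, with TRAIL in parental cells, from -0.05 to 0.22 (CXCL11) and -0.06 to 0.08 (CXCL16); in TTR cells from -0.01 to 0.11 (CXCL16); between untreated lines from -0.13 to 0.14 (CXCL1), -0.04 to 0.23 (CXCL3), -0.07 to 0.02 (CXCL5) and -0.10 to 0.03 (CXCL16); between treated lines from -0.02 to 0.01 (CXCL16); and for the difference from -0.09 to 0.20 (CXCL11) and -0.04 to 0.10 (CXCL16). The cause was not tested. Of the 10 genes, 2 passed between untreated lines with array weights and 1 with the replicate block, against 0; leaving out 1 array gave 0 to 1. Leaving out 1 array gave 6 to 7 members higher in parental cells, 6 to 6 in TTR cells, 7 to 8 lower between treated lines and 6 to 7 below 0 in the difference. Over all genes, 10827 calls in parental cells became 17193 with every feature tested (more features), and 10017 between treated lines became 15367. The share of calls that were higher fell in parental cells from 49.1% to 21.3% after median centring and 37.9% after quantile normalization. Between treated lines 74.1% of calls were higher and for the difference 80.9% after median centring, against 51.6% and 61.6%. In TTR cells 1072 calls became 2391 after median centring (18.7% higher against 56.2%), 3199 with array weights, 1709 when TRAIL-treated parental arrays were left out, and 2670 with the replicate block and TTR arrays alone, which was chosen after seeing the data. Leaving out 1 array gave 379 to 1487: 379, 508 and 693 without TTR TRAIL array 2, 1 or 3, and 450 and 542 without TTR untreated array 2 or 3. Between untreated lines 1310 became 2386 with array weights and 782 to 1553 without 1 array (782 without TTR untreated array 2, 807 and 829 without parental untreated array 1 or 2), and leaving out 1 array gave 9805 to 10917 in parental cells, 8772 to 10152 between treated lines and 6008 to 6912 for the difference. The block, whose numbers pair the TTR arrays, changed no call of the 10 genes with TRAIL in TTR cells. With 3 arrays a group and no detection measure, values near the lower quartile set a limit on small changes of CXCL11, CXCL16 and CCL2.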

Other observations

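The letters GGAATTTCC, chosen for this after they were seen before 7 of the chemokine genes, stood in the windows of 74 other measured genes. With TRAIL in parental cells 24 of these rose (32.4%) and 22 fell (29.7%), against 26.9% and 32.5% of the 14239 measured genes with a window, and their median change was 0.00. At least 2-fold rises were seen in 10 of the 74 (13.5%, against 3.53%). In TTR cells 10 of the 74 rose (13.5%, against 3.05%) and 4 rose by at least 2-fold (5.41%, against 0.569%). The 10 in parental cells were LOC100131496 (3.48), NFKBIA (3.11), NFKBIZ (2.92), ICAM1 (1.60), COL7A1 (1.52), TMEM106A (1.41), MICAL3 (1.24), DUSP6 (1.21), UTP3 (1.16) and ZNF442 (1.16). ICAM1 is an adhesion molecule for leukocytes, COL7A1 a collagen and DUSP6 a phosphatase of the kinase ERK. In TTR cells LOC100131496 stood at 2.64, NFKBIA at 2.62, NFKBIZ at 2.43, ICAM1 at 1.48 (adjusted p = 6.08e-05 by limma) and DUSP6 at 0.66. MICAL3 stood at 0.40 (adjusted p = 0.0455). COL7A1 (0.45, adjusted p = 0.0561), TMEM106A (0.37), UTP3 (0.46) and ZNF442 (0.19) did not pass there. These genes were picked by the letters and by their own rise, after their values were seen.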
